A study of Danio rerio with 14 samples.

Results

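The actinodin genes and1, and2 and and3 of zebrafish (Danio rerio) were described across the regrowing fin ray tip. They were taken as the rows of those names in the deposited table, 3 genes of 14836, and all 3 passed the filter of 1 TPM or more (the deposited unit, each transcript's share of its library corrected for length) in 2 or more libraries, which kept 11272 genes. Bulk RNA was sequenced from fin tips that the titles call wild type, a strip of about 250 µm at the end of each ray, at 5 times labelled 0, 3, 7, 10 and 14 days post amputation (dpa). The samples labelled 3 dpa are placed at 3.5 days by the series' description. There were 3 libraries at each time and 2 at 14 dpa, 14 in all, each from tissue pooled over 10 animals, so p-values measure the spread between pools. The labels name no transgene or treatment other than amputation, and give no age, sex, strain or kind of fin.

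Actinodins are structural proteins of actinotrichia, the stiff unmineralised fibrils that hold up the fin fold of the embryo and the growing end of each adult fin ray. The fibrils are built from actinodins together with fibrillar collagens. In zebrafish embryos, and1 and and2 together are needed for the fibrils to form, and the loss of this gene family has been tied to the fin-to-limb transition. When a fin is cut, new actinotrichia are laid down at the front of the regenerate, ahead of the mineralising bone.

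The 3 genes did not all follow the same course. Transcripts of and1 and and2 were at their highest at 3 dpa and lower at each later time, while and3, at far lower levels, was highest at 7 and 10 dpa. All 3 were higher than at 0 dpa at 3, 7 and 10 dpa, and at 14 dpa and1 and and2 still were. The and3 call at 3 dpa was the weakest of these and held in 16 of 23 alternative settings.

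The and1 transcript stood at 224, 227 and 87.8 TPM in the 0 dpa libraries (replicates 1 to 3, the order used throughout), and at 15444, 13439 and 13368 TPM at 3 dpa. It was at 6485, 7429 and 4280 TPM at 7 dpa, at 2922, 3281 and 3807 TPM at 10 dpa, and at 865 and 1049 TPM at 14 dpa. No library of one time overlapped those of another, so that the order of the levels was 3, 7, 10, 14 and 0 dpa. By group mean and1 ranked 5 among the 14836 genes at 3 dpa and 921 at 0 dpa. On the log2(TPM + 1) scale, which is used for every log2 change here and understates the change of low genes, it rose by 6.41 ± 0.31 (SE) from 0 to 3 dpa (limma adjusted p = 9.38e-09). The rise over 0 dpa was 5.16 ± 0.31 at 7 dpa (adjusted p = 1.47e-07), 4.32 ± 0.31 at 10 dpa (adjusted p = 1.02e-06) and 2.53 ± 0.34 at 14 dpa (adjusted p = 0.00114).

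The and2 transcript had the lower level of this pair in every library and the larger rise. It was at 30.4, 30.5 and 10.9 TPM at 0 dpa, at 5300.5, 4787 and 4815 TPM at 3 dpa, and at 2030.3, 2335 and 1409 TPM at 7 dpa. It then stood at 722, 832 and 936 TPM at 10 dpa and at 199.7 and 214 TPM at 14 dpa. Its order of times was that of and1, again with no overlap between times. The change from 0 dpa was 7.77 ± 0.31 at 3 dpa (adjusted p = 2.65e-09), 6.37 ± 0.31 at 7 dpa (adjusted p = 3.00e-08), 5.18 ± 0.31 at 10 dpa (adjusted p = 2.59e-07) and 3.19 ± 0.35 at 14 dpa (adjusted p = 0.000268).

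The and3 transcript was scarce, with and1 at 66.4 to 2577 times its level in TPM over the 14 libraries. It was at 3.37, 2.23 and 0.603 TPM at 0 dpa and at 8.65, 6.47 and 5.19 TPM at 3 dpa. At 7 dpa it was at 29.7, 61.4 and 16.2 TPM, at 10 dpa at 13.2, 32.7 and 41.3 TPM, and at 14 dpa at 2.23 and 5.00 TPM. The 7 and 10 dpa libraries overlapped each other and lay above those of every other time, and the 14 dpa libraries overlapped those of 0 dpa. Over 0 dpa and3 rose by 1.43 ± 0.52 at 3 dpa (adjusted p = 0.0340), 3.50 ± 0.52 at 7 dpa (adjusted p = 0.000277) and 3.27 ± 0.52 at 10 dpa (adjusted p = 0.000782). At 14 dpa its change was 0.64 ± 0.58 (95% interval -0.63 to 1.90, adjusted p = 0.485). The call at 3 dpa did not hold with a pseudocount of 5 TPM (0.74, adjusted p = 0.130), with scaling between libraries (1.26, adjusted p = 0.0510), or without 0 dpa replicate 2 or 3 or any 1 of the 3 dpa libraries (1.02 to 1.59).

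**Figure D1:**
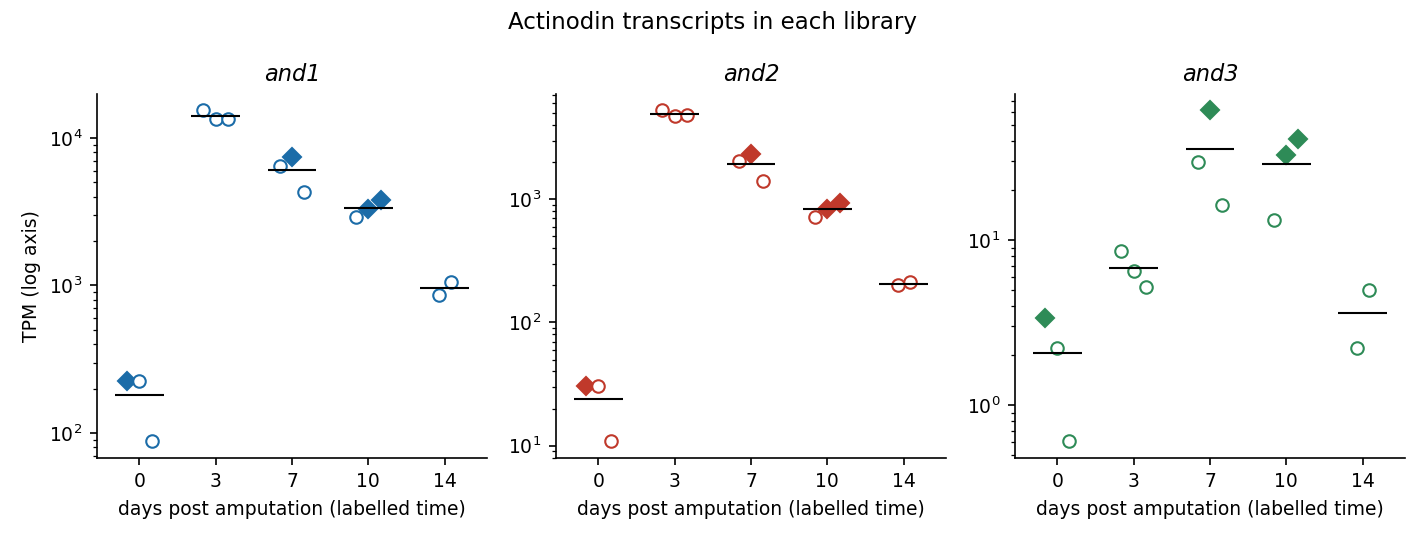
TPM on a log axis of and1, and2 and and3 in each of the 14 libraries by labelled time, with a bar at the mean of each time and filled diamonds for the 4 libraries with high fosb. The and1 and and2 points are highest at 3 dpa, and the and3 points at 7 and 10 dpa, where they run from 13.2 to 61.4 TPM.

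The 4 comparisons share the 0 dpa libraries. Among all genes tested, 35.0% were called higher at 3 dpa, 21.5% at 7 dpa, 14.0% at 10 dpa and 10.1% at 14 dpa, against 3, 3, 3 and 2 of the 3 actinodin genes. The median of all genes shifted up by 0.24, 0.19, 0.16 and 0.30 on the log2 scale at these times as deposited, and by 0.02, -0.02, -0.04 and 0.04 after median-of-ratios scaling of the libraries. That scaling also moved the split of all genes called higher and lower, from 3945 and 2214 to 2941 and 2995 at 3 dpa, from 2420 and 1022 to 1820 and 1904 at 7 dpa, from 1577 and 308 to 1213 and 861 at 10 dpa, and from 1143 and 122 to 272 and 252 at 14 dpa. After that scaling the changes from 0 to 3 dpa were 6.15 for and1 and 7.52 for and2, and at 14 dpa they were 2.21 and 2.89. For and3 the scaled change from 0 to 3 dpa was 1.26 and did not pass (limma adjusted p = 0.0510).

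**Figure D2:**
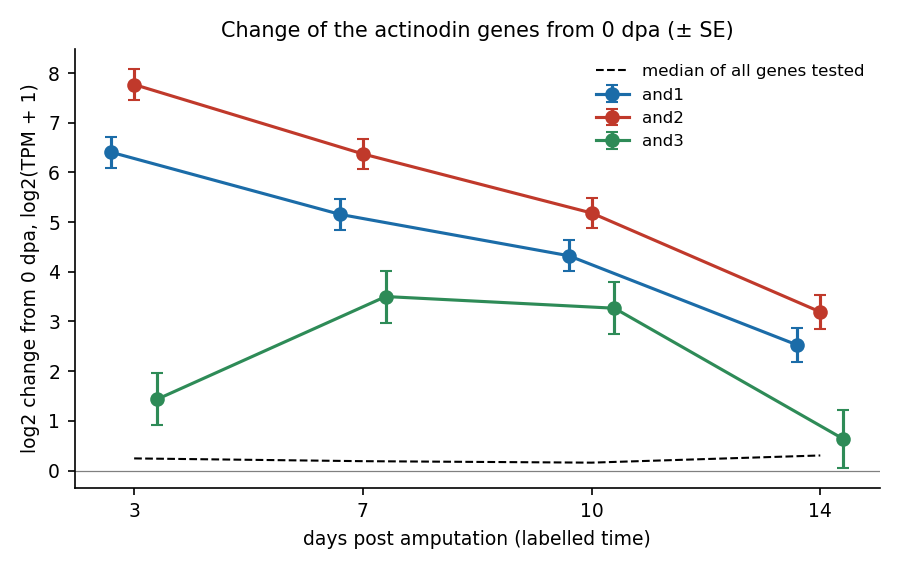
Log2 change from 0 dpa (points, with SE bars) of the 3 genes at each regrowth time, with the median over all 11272 genes tested as a dashed line. The and1 and and2 lines fall from 6.41 and 7.77 at 3 dpa to 2.53 and 3.19 at 14 dpa, while the and3 line is at 1.43, 3.50, 3.27 and 0.64.

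The actinodins together made up a visible part of the transcripts at 3 dpa. Their summed TPM was 1.82% to 2.08% of each 3 dpa library, 0.570% to 0.983% at 7 dpa, 0.366% to 0.478% at 10 dpa and 0.107% to 0.127% at 14 dpa. At 0 dpa it was 0.00993% to 0.0259%. Of the group mean at 3 dpa, and1 kept 43.1% at 7 dpa, 23.7% at 10 dpa and 6.80% at 14 dpa, and and2 kept 38.8%, 16.7% and 4.17%. In tissue measured in bulk, fewer cells that make a transcript and less of it per cell cannot be told apart. At 0 dpa the strip held no regenerate, so the kind of tissue and the time cannot be told apart either.

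From 3 to 7 dpa the genes moved in opposite directions. The and1 transcript fell by 1.25 ± 0.31 (adjusted p = 0.0152) and and2 fell by 1.397 ± 0.31 (adjusted p = 0.00833), while and3 rose by 2.07 ± 0.52 (adjusted p = 0.0171). Among all genes 7.57% were called lower and 9.14% higher in this step. For and1 the adjusted p was 0.0547 with replicate 1 of 3 dpa left out and 0.0631 with replicate 3 of 7 dpa left out. For and3 it was 0.0511 and 0.0649 with replicates 2 and 3 of 3 dpa left out in turn and 0.0597 with replicate 2 of 7 dpa left out, where its change was 1.59 to 2.05.

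Between 7 and 10 dpa no actinodin gene passed the threshold, in a step where 0.0177% of all genes did (2 of 11272). The changes were -0.83 ± 0.31 for and1 (adjusted p = 0.577), -1.19 ± 0.31 for and2 (adjusted p = 0.354) and -0.24 ± 0.52 for and3 (adjusted p = 0.957), with unadjusted limma p-values of 0.0186, 0.00213 and 0.661. Their 95% intervals ran from -1.50 to -0.16, from -1.86 to -0.52 and from -1.37 to 0.90. The libraries of and1 and and2 did not overlap between these times. The share of all genes without such overlap is not given here, so nothing is read from this.

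From 10 to 14 dpa all 3 fell, as did 3.64% of all genes (410 genes, and 551 after scaling, against 579 and 354 higher). The log2 change was -1.80 ± 0.34 for and1 (adjusted p = 0.00838), -1.99 ± 0.35 for and2 (adjusted p = 0.00507) and -2.63 ± 0.58 for and3 (adjusted p = 0.0171). These calls rested on 2 libraries at 14 dpa, and with replicate 1 of that time left out the adjusted p was 0.108, 0.0654 and 0.195 for and1, and2 and and3. With replicate 2 left out it was 0.0554 for and1 and 0.0605 for and3, and with replicate 2 or 3 of 10 dpa left out it was 0.0603 or 0.0694 for and3.

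Over the 11 regrowth libraries, with time as days, and1 declined by 0.36 ± 0.02 per day on the log2 scale (slope -0.36, adjusted p = 4.77e-07) and and2 by 0.43 ± 0.02 (slope -0.43, adjusted p = 8.21e-08), where 13.4% of all genes had a falling slope past the threshold and 17.4% a rising one. A straight line gave -0.04 ± 0.10 per day for and3 (adjusted p = 0.792), whose levels first rose. A pair of contrasts was added after seeing the order of the and3 levels. By these, and3 was higher at 10 than at 3 dpa by 1.83 ± 0.52 (adjusted p = 0.0187, 15.8% of all genes higher), and its change from 3 to 14 dpa was -0.80 ± 0.58 (95% interval -2.06 to 0.47, adjusted p = 0.331, in a step where 34.1% of all genes passed). In the order of its levels, 7, 10, 3, 14 and 0 dpa, only the step between 10 and 3 dpa passed the test between neighbours. It did not pass without 10 dpa replicate 2 or 3 or 3 dpa replicate 2 or 3 (adjusted p = 0.0525 to 0.0783).

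The ratio of one actinodin to another within a library does not depend on the scaling of libraries, apart from the pseudocount. For and1 and and2 it was tight within a time and moved with time. The TPM of and1 was 7.36, 7.42 and 8.09 times that of and2 at 0 dpa, and 2.91, 2.81 and 2.78 times at 3 dpa. It was then 3.19, 3.18 and 3.04 times at 7 dpa, 4.05, 3.94 and 4.07 times at 10 dpa, and 4.33 and 4.90 times at 14 dpa. These ratios did not overlap between any of the times, and at 14 dpa they lay between the 3 dpa and 0 dpa values. The log2 ratio of and2 to and1 was 1.06 higher over the 11 regrowth libraries than at 0 dpa (exact permutation test over 364 arrangements, two-sided, p = 0.00275, the smallest they can give, and 0.00824 adjusted over 6 ratio tests). During regrowth it declined by 0.07 per day (slope -0.07, exact permutation p = 1.08e-05, the smallest possible over 92400 arrangements, and 6.49e-05 adjusted). The and2 transcript rose more than and1 and then declined faster.

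The ratios of and3 to the other 2 genes dipped at 3 dpa. The log2 ratio of and3 to and1 was -5.87 ± 0.24 (SD, n = 3) at 0 dpa, -10.85 ± 0.22 (n = 3) at 3 dpa, -7.53 ± 0.56 (n = 3) at 7 dpa, -6.93 ± 0.66 (n = 3) at 10 dpa and -7.76 ± 0.44 (n = 2) at 14 dpa. The 3 dpa values lay below those of every other time, and those of 7, 10 and 14 dpa overlapped. The 0 dpa values lay above the others on this scale only. Without a pseudocount the TPM of and1 was 66.4 to 146 times that of and3 at 0 dpa, which overlapped the 121 to 264 times of 7 dpa and the 92.3 to 222 times of 10 dpa. Against 0 dpa the regrowth mean of this ratio was 2.44 lower (difference -2.44, exact permutation p = 0.0440, adjusted 0.0440). A straight line over the regrowth days gave 0.32 per day (exact permutation p = 0.0163, adjusted 0.0196). The rise was not steady, as the 14 dpa mean lay below those of 7 and 10 dpa. For and3 to and2 the difference was -3.50 (p = 0.00549, adjusted 0.00846) and the slope 0.39 per day (p = 0.00564, adjusted 0.00846), both by the same exact permutation tests. The means of that ratio were -9.34 at 3 dpa, -5.88 at 7 dpa, -4.92 at 10 dpa and -5.56 at 14 dpa, again with no steady rise. The pseudocount of 1 TPM is larger than the lowest and3 value at 0 dpa, and with 0.1 TPM the and3 to and1 difference was -1.93 (adjusted p = 0.0962). Leaving out any 1 of the 0 dpa libraries put the differences of both ratios at an adjusted exact permutation p of 0.0513, with values of -2.57 to -2.35 for and1 and -3.64 to -3.42 for and2.

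**Figure D3:**
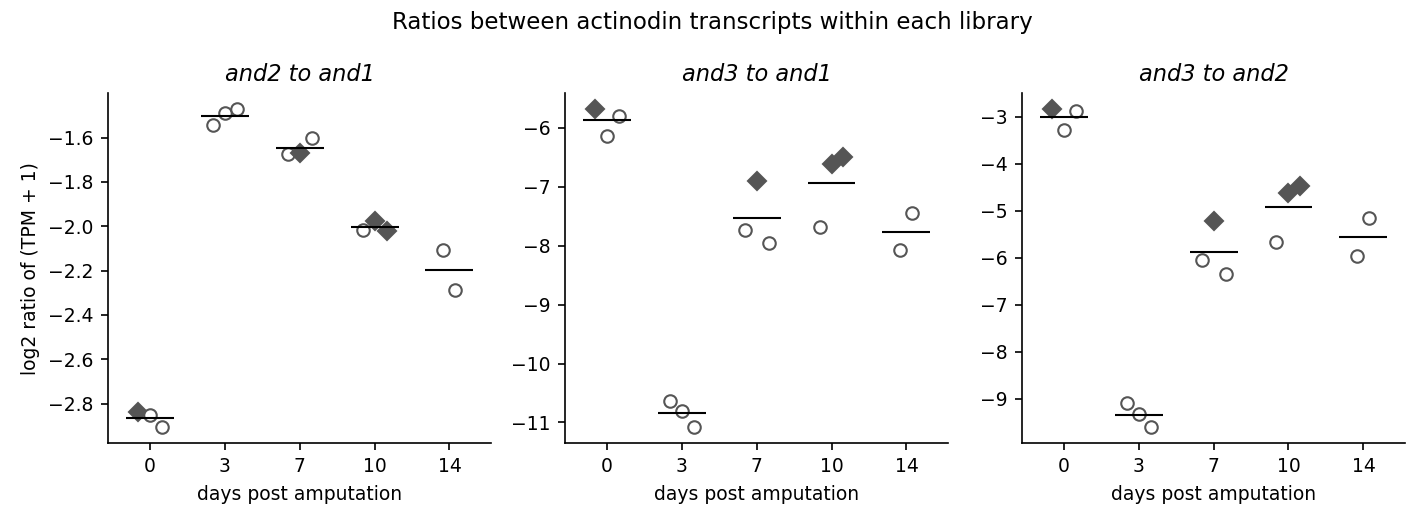
Log2 ratio of (TPM + 1) between pairs of actinodin genes in each library by days post amputation, with a bar at the mean of each time and filled diamonds for the 4 libraries with high fosb. The and2 to and1 ratio steps up from 0 to 3 dpa and then down at each time, and both and3 ratios are lowest at 3 dpa.

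How the genes varied between libraries of the same time was examined through deviations from the mean of each time. For and1 and and2 these deviations correlated at r = 0.993 over 14 libraries (Spearman rho = 0.969, exact permutation within times, p = 0.000772 and 0.00116, adjusted 0.00154 over 3 pairs). For and1 and and3 r was 0.809 (rho = 0.859, exact permutation p = 0.00116 and 0.00154, adjusted 0.00154), and for and2 and and3 0.773 (rho = 0.793, p = 0.00154 and 0.00347, adjusted 0.00154). Without the 2 libraries farthest from the median, 0 dpa replicate 3 and 7 dpa replicate 3, r was 0.979, 0.763 and 0.712. No background over other pairs of genes was computed for these correlations. Differences between libraries that many genes share could also raise them, so nothing particular to the actinodins is read from them. Salmon divides reads that match several transcripts by estimation, and how alike the actinodin transcripts are was not measured here, so the division of reads between and1 and and2 is uncertain.

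The library that stood low for one actinodin gene often stood low for the others. The 0 dpa replicate 3 had the lowest and1, and2 and and3 of its time, and 7 dpa replicate 3 likewise. Over the 5 times the coefficient of variation within a time was 8.37% to 44.2% for and1, 4.93% to 47.4% for and2 and 25.8% to 67.3% for and3. For all 3 it was highest at 0 dpa, the baseline of every rise.

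High levels of fosb, an immediate early gene of the AP-1 family, marked 4 libraries, which were replicate 1 of 0 dpa, replicate 2 of 7 dpa, and replicates 2 and 3 of 10 dpa. They held 886 to 1702 TPM of fosb against 23.0 to 144 TPM in the others. The and3 level moved with it. At each of the 5 times the order of the libraries by and3 was their order by fosb, which was the case for 462 of the other 11271 genes. Deviations of and3 and fosb from the mean of their time correlated at r = 0.927 (rho = 0.974, exact permutation within times, p = 0.000386 for both, the smallest they can give, and adjusted p = 0.00116 over 3 genes), and at 0.895 without the 2 libraries farthest from the median. By this r, and3 ranked 618 among 11271 genes, whose median was 0.308. For and1 r was 0.603 and for and2 0.574 (exact permutation p = 0.0667 and 0.0756, both with adjusted p = 0.0756, rho = 0.793 and 0.710 with p = 0.0135 and 0.0363). These 3 relations were computed after seeing the values, and the part of what raised fosb in the and3 levels was not tested.

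Without those 4 libraries, which leaves 1 at 10 dpa that is assumed to vary like the rest, the rises over 0 dpa were 6.63 for and1 and 8.004 for and2 at 3 dpa. For and3 they were 1.75 ± 0.39 at 3 dpa (adjusted p = 0.00332), 3.34 ± 0.43 at 7 dpa (adjusted p = 0.000375) and 2.64 ± 0.52 at 10 dpa (adjusted p = 0.00976). The and3 step from 3 to 7 dpa was 1.59 ± 0.39 (adjusted p = 0.0178), and the change from 3 to 10 dpa was 0.89 ± 0.49 (adjusted p = 0.216). The steps from 10 to 14 dpa no longer passed, at -1.62 for and1, -1.80 for and2 and -1.69 for and3 (adjusted p = 0.0735, 0.0533 and 0.101).

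**Figure D4:**
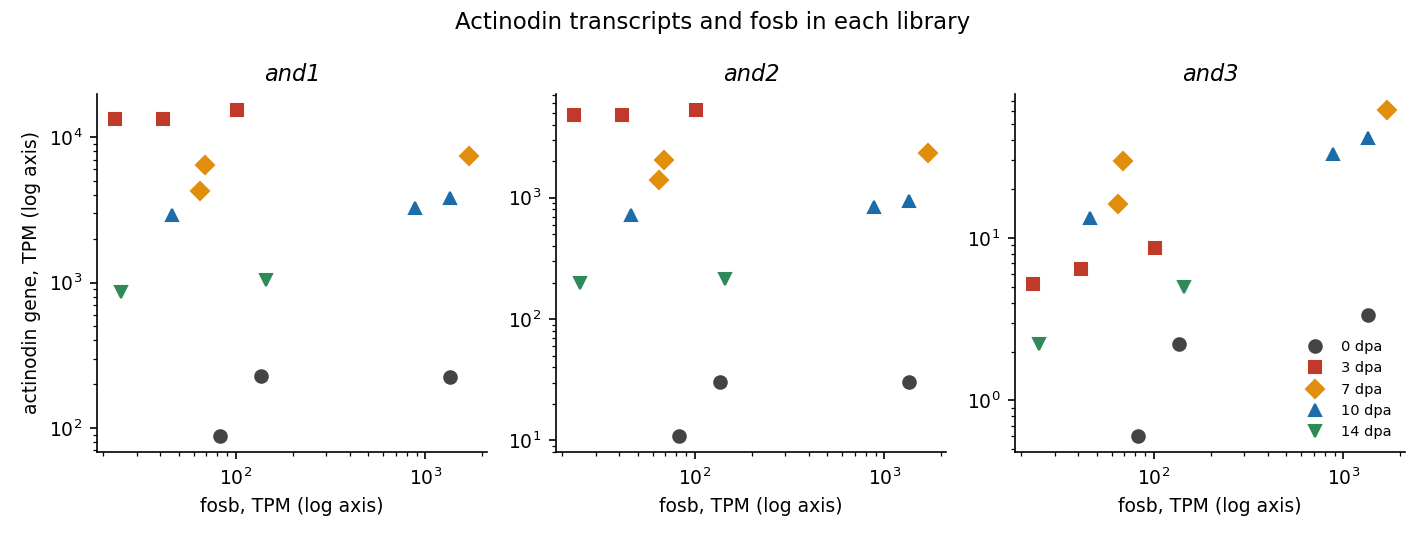
TPM of each actinodin gene against TPM of fosb in the 14 libraries, both on log axes, with 1 symbol per time. In the and3 panel the points of each time climb from left to right, with 61.4 TPM of and3 in the 7 dpa library that holds 1702 TPM of fosb.

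Collagens of the fibrils and of the fin fold rose with the actinodins. Of 20 genes listed, 14 were in the table and 11 passed the filter. Of these, 9 rose and 1 fell at 3 dpa (35.0% and 19.6% of all genes). The count of risen genes was 9 at 7 dpa, 10 at 10 dpa and 9 at 14 dpa, against 21.5%, 14.0% and 10.1% of all genes. None was lower at these later times, where 9.07%, 2.73% and 1.08% of all genes were lower. The median change of the list was 3.26, 3.05, 2.76 and 1.47 at 3, 7, 10 and 14 dpa, against 0.24, 0.19, 0.16 and 0.30 for all genes. The collagen I chain gene col1a1a, among the most abundant transcripts of the tissue, went from 1810.1 ± 396 TPM at 0 dpa to 65600.2 ± 9541 TPM at 3 dpa (SD, n = 3 each), a log2 change of 5.19 ± 0.21. It then fell by 0.80 ± 0.21 from 3 to 7 dpa. The collagen II gene col2a1b was at 118 ± 32.1 TPM at 0 dpa, 909.97 ± 201 at 3 dpa and 1143 ± 338 at 7 dpa (SD, n = 3 each), and its change from 3 to 7 dpa was 0.31 ± 0.26 (adjusted p = 0.468).

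The course of the collagens with time was not uniform. The collagen IX chain gene col9a1a was like and1 up to 7 dpa, with a rise of 4.23 ± 0.27 at 3 dpa and a fall of 1.17 ± 0.27 from 3 to 7 dpa. At 14 dpa its change from 0 dpa was 0.35 ± 0.30 (adjusted p = 0.456), where and1 was still 2.53 higher. Its levels at these ends, 0.157 ± 0.103 TPM at 0 dpa (SD, n = 3) and 0.468 ± 0.0922 TPM at 14 dpa (n = 2), lay under the pseudocount of 1 TPM. Another chain gene of collagen IX, col9a2, was lower at 3 dpa (-0.61 ± 0.15, adjusted p = 0.00407) and higher at 10 dpa (1.21 ± 0.15, adjusted p = 0.000103), at levels of 0.561 ± 0.0803 TPM at 0 dpa, 0.0208 ± 0.0360 TPM at 3 dpa and 2.63 ± 0.408 TPM at 10 dpa (SD, n = 3 each). The collagen XI genes col11a2 (5.10 ± 0.21) and col11a1b (4.85 ± 0.24) rose at 3 dpa and stood at 5.25 and 4.86 over 0 dpa at 7 dpa. The collagen V gene col5a3a gave -0.50 ± 0.21 at 3 dpa (adjusted p = 0.0605). Over the regrowth days 9 of the 11 collagens had a falling slope past the threshold and 1, col9a2, a rising one. Among all genes 13.4% had a falling slope past the threshold and 17.4% a rising one.

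Enzymes and chaperones of collagen were also higher. Of 28 listed, 18 were in the table and tested, and 16 rose and 1 fell at 3 dpa, against 35.0% and 19.6% of all genes, with a median change of 3.09 against 0.24. The count of risen genes was 16 at 7 dpa, 15 at 10 dpa and 10 at 14 dpa, where 21.5%, 14.0% and 10.1% of all genes rose. They included the collagen chaperone genes serpinh1b (5.43 ± 0.61) and serpinh1a (4.85 ± 0.26), the lysyl hydroxylase plod1a (4.81 ± 0.32) and the crosslinking oxidase loxa (4.58 ± 0.19). The gene that fell was loxl1, a lysyl oxidase relative (-0.70 ± 0.17, adjusted p = 0.00443). At 14 dpa the count ran from 3, without 14 dpa replicate 1, to 14, without the 4 libraries with high fosb. It was 6 after scaling, and 4 both with only the compared groups in the fit and without 14 dpa replicate 2. Of all 11272 genes, 1143 were higher at 14 dpa in the main fit, 161 without 14 dpa replicate 1 and 3157 without the 4 libraries. That number was 272 after scaling, 201 with only the compared groups and 248 without 14 dpa replicate 2.

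**Figure D5:**
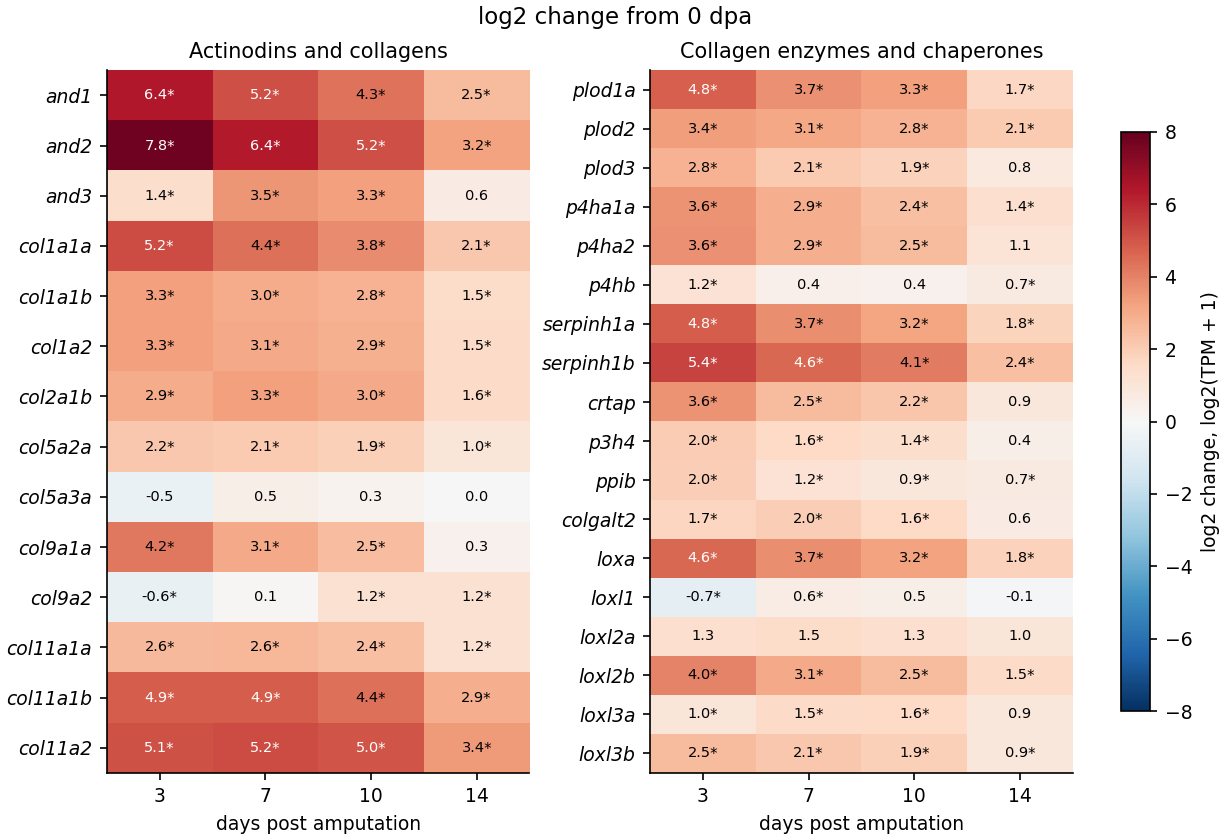
Log2 change from 0 dpa at 3, 7, 10 and 14 dpa of the actinodins and the tested collagens (left) and collagen enzymes and chaperones (right), with red for higher, blue for lower and a star where the limma adjusted p is under 0.05. The and2 row is at 7.77 at 3 dpa and the and3 row reaches 3.50 at 7 dpa.

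Posterior Hox and Evx factors, among them genes that pattern the end of the fin, rose in 17 of 19 tested genes at 3 dpa. At the later times 17, 11 and 5 rose, with no gene lower at any of the 4 times. Among all genes 35.0%, 21.5%, 14.0% and 10.1% rose at these times. The median change of the list at 3 dpa was 1.35, against 0.24 for all genes. The gene hoxa13a went from 12.6 ± 1.29 TPM at 0 dpa to 111 ± 9.68 TPM at 3 dpa (n = 3 each, SD), a log2 change of 3.04 ± 0.14, and evx1, needed for ray joints, gained 2.07 ± 0.20. Genes of the fold ridge and distal epidermis rose in 13 of 16 at 3 dpa and in 12, 11 and 2 at the later times, with a median change of 2.53 at 3 dpa, and their 2 of 16 at 14 dpa was near the share of all genes. Among them the Fraser complex gene frem2a gained 5.70 ± 0.39 and the Wnt effector gene lef1 4.20 ± 0.15, while the ridge ligand gene fgf24 gave 0.16 ± 0.35 (adjusted p = 0.722). The Hox and Evx count at 3 dpa was 10 with only genes of a mean of at least 5 TPM, a filter that tests fewer genes. Over the alternatives the counts at 14 dpa ran from 1 to 10 for Hox and Evx genes and from 1 to 6 for ridge genes, both highest without the 4 libraries with high fosb. The Hox and Evx count was 1 with only the compared groups in the fit and without 14 dpa replicate 1. The count over all 11272 genes moved as well, from 1143 higher at 14 dpa in the main fit to 3157 without the 4 libraries. It was 201 with only the compared groups and 161 without 14 dpa replicate 1.

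Markers of cell types changed in both directions at 3 dpa, and their part in the actinodin changes was not tested. Their counts at 3 dpa stand against 35.0% of all genes higher and 19.6% lower. The summed level of 11 fibroblast markers was 332 to 378 TPM at 0 dpa, 2416 to 2570 at 3 dpa, 1712 to 1842 at 7 dpa, 1306 to 1473 at 10 dpa and 697 to 779 at 14 dpa. At 3 dpa 10 of the 11 rose and none fell, with prrx1b at 4.30 ± 0.20. Osteoblast markers, 6 of 11 higher and 1 lower at 3 dpa, summed to 253 to 397 TPM at 0 dpa and 12880 to 12996 TPM at 3 dpa, most of it collagen X (col10a1a, 12418 TPM at 3 dpa). The osteoblast sum also fell afterwards, to 8380 to 11755 TPM at 7 dpa, 6923 to 9008 at 10 dpa and 2358 to 2724 at 14 dpa. Most of it was still col10a1a, with means of 9735, 7586 and 2287 TPM, so this is largely the course of that gene. From 3 to 7 dpa 3 of the 11 osteoblast markers rose and none fell, against 9.14% and 7.57% of all genes. From 10 to 14 dpa 5 fell and none rose, where 3.64% of all genes fell. Of 8 basal epidermis markers 4 fell and 1 rose at 3 dpa, and their sum was 58292 to 94659 TPM at 0 dpa and 31610 to 38456 TPM at 3 dpa. Most of that sum was krt5, with means of 69934 TPM at 0 dpa and 32308 TPM at 3 dpa. The basal epidermis sum was then 48885 to 75215 TPM at 7 dpa, 51144 to 69372.5 at 10 dpa and 54585 to 56638 at 14 dpa.

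The remaining marker lists checked the makeup of the strip. Superficial epidermis and mucus cell markers fell in 8 of 9 at 3 dpa and macrophage markers in 4 of 6, with none higher in either. Pigment cell markers fell in 5 of 8 at 3 dpa and rose in 6 at 7 dpa and 6 at 10 dpa, where 21.5% and 14.0% of all genes rose. Their sum was 229 to 358 TPM at 0 dpa, 149.7 to 157 at 3 dpa, 648 to 701 at 7 dpa, 779 to 1049 at 10 dpa and 527 to 668 at 14 dpa, and their part in the and3 course was not tested. Endothelium markers rose in 9 of 10, erythrocyte markers in 4 of 6 and muscle markers in 3 of 4 tested at 3 dpa. Neutrophil markers rose in 2 of 6, the protease genes mmp9 and mmp13a, and fell in 2, mpx and npsn. Glia and nerve markers rose in 2 and fell in 4 of 6. For both lists the 2 of 6 higher was near the 35.0% of all genes. Of 11 muscle markers 6 were under 1 TPM in every library, and the muscle sum was at most 10.8 TPM. The markers cdh5 and lyve1b of endothelium, hbaa2 of erythrocytes and s100b and elavl3 of glia and nerve were also under 1 TPM throughout.

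The genes most like each actinodin were ranked by Pearson's r of log2(TPM + 1) over the 14 libraries, as a description without a test. The ranking was among 8573 other genes with a mean of at least 5 TPM in their highest group. Genes whose symbol is a clone or locus name were left out of it, so one of those may be closer. The closest to and1 was and2 (r = 0.999), followed by dcn, which encodes the small proteoglycan decorin (0.998), the actin crosslinker gene actn1 (0.997), dkk3b of the Dickkopf family (0.996), col1a1a (0.996) and mxra8a, a matrix remodelling associated gene (0.996). For and2 the list was and1, dcn, actn1, the proteoglycan gene ogna, col1a1a and dkk3b (0.999 to 0.994). There were 305 genes with r of at least 0.95 for and1 and 311 for and2, and the median r over the genes compared was 0.245 and 0.252. All libraries of a time share their time, so r largely follows the changes between times.

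Decorin, picked for its likeness to and1 and and2, is given as a description. The dcn transcript was at 51.2 ± 10.9 TPM at 0 dpa, 911 ± 45.4 at 3 dpa, 477 ± 65.5 at 7 dpa, 345 ± 32.95 at 10 dpa (SD, n = 3 each) and 152 ± 13.3 at 14 dpa (n = 2). Its rise at 3 dpa was 4.15 ± 0.16, and its slope over regrowth was -0.24 ± 0.02 per day, against -0.36 for and1.

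The and3 transcript had other neighbours. Among its most alike genes were col4a5, a basement membrane collagen chain (r = 0.965), nbl1, a secreted Bmp antagonist (0.960), gstm.1 of the glutathione transferases (0.959), the histone gene h3f3c (0.952) and pigr, an immunoglobulin receptor gene (0.952). Of the genes compared, 6 reached an r of 0.95, and the median over the genes compared was 0.0986. By the same measure and1 ranked 883 and and2 931 for and3 (r = 0.649 and 0.641).

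These genes were picked for their likeness to and3 over the same libraries, so their course is given as a description with no test. Of the 5, the largest changes were in col4a5, at 279.5 ± 117 TPM at 0 dpa, 796 ± 207 at 7 dpa and 851 ± 130 at 10 dpa (SD, n = 3 each), with a log2 change of 1.56 ± 0.31 at 7 dpa.

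The 3 actinodin genes lie on different chromosomes in the RefSeq annotation of a later assembly (GRCz12tu) than the build used by the submitters, and that annotation was used here only for the order of genes. All 3 symbols matched. Of the 18 protein-coding genes that flank them, 3 on each side, 12 were in the table and 9 were tested, of which 4 were higher and 3 lower at 3 dpa, against 35.0% and 19.6% of all genes. With 9 genes tested nothing is read from these counts. The gene ranbp9, the third from and2, was at 39.7 TPM at 0 dpa and 40.1 TPM at 3 dpa (log2 change 0.01 ± 0.14), and cops9 beside and1 gained 0.70 ± 0.17. The procollagen proteinase enhancer gene pcolcea, the third from and3, rose by 3.03 ± 0.21 at 3 dpa (adjusted p = 1.80e-07), at a time when and3 gained 1.43. The 3 that were lower were apodb near and1 (-1.32 ± 0.51), and per1a (-1.45 ± 0.26) and vamp2 (-0.81 ± 0.22) near and3.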

How the data were processed

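Values of 14 libraries, each from pooled fin ray tips, were analysed. The authors deposited TPM per gene, and each library sums to 1000000. The submitters' processing notes name Trim Galore 0.6.7 with cutadapt 3.5, Salmon 1.4.0 and danRer11. The annotation and any gene filter are not given in the sources used here. Read depth is not kept by TPM and is unknown, so counting intervals are not given.

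Kept genes (1 TPM or more in 2 or more libraries, 11272 of 14836) were fitted as log2(TPM + 1) by limma 3.58.1 in R 4.3.3 with 1 mean per time, a variance trend and two-sided tests, adjusted by Benjamini-Hochberg over all kept genes with a threshold of 0.05. Ratios and deviations within times were tested by exact permutation. The model was tested on simulated data.

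Members and lists were chosen with earlier results of these data known. Genes named by rule were the actinodins, the 6 most alike to each, up to 4 called genes per list by size of change at 3 dpa, and exceptions among collagens and their enzymes. The genes fosb, fgf24, cops9, ranbp9, pcolcea, apodb, per1a and vamp2 were chosen after their values were seen. 1 gene that the rule names is not reported here. Alternatives were other pseudocounts (0.1 and 5), either no filter or a stricter one (mean of 5 TPM), scaling, variances with no trend, fits of the compared groups alone, a replicate block, other time scales, each library left out, and the 4 libraries with high fosb left out.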

Additional observations from a re-analysis of the deposited data

How the results depend on the processing

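The rises of and1 and and2 over 0 dpa, their declines per day and the slopes of all 3 ratios kept their direction and side of the threshold under every alternative run for them. Among results that did not, the and3 change from 0 to 3 dpa was 0.74 with a pseudocount of 5 and 1.26 after median-of-ratios scaling, and 1.02 to 1.75 over single libraries left out. The difference of the and3 to and1 ratio between regrowth and 0 dpa was -1.93 with a pseudocount of 0.1, -2.96 without the 4 libraries with high fosb, and -2.62 to -2.16 over single libraries; that of and3 to and2 was -3.70 to -3.19. Without the 4 libraries the changes from 10 to 14 dpa were -1.62 (and1), -1.80 (and2) and -1.69 (and3), and and3 from 3 to 10 dpa was 0.89.

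With each library left out in turn, ranges were -1.42 to -1.02 for and1 and 1.59 to 2.52 for and3 from 3 to 7 dpa, -1.40 to -1.03 for and2 and -0.68 to 0.25 for and3 from 7 to 10 dpa, -1.94 to -1.66 (and1), -2.09 to -1.90 (and2) and -3.10 to -2.18 (and3) from 10 to 14 dpa, 1.52 to 2.30 for and3 from 3 to 10 dpa, and -0.10 to 0.07 per day for the and3 slope. The and3 change from 7 to 10 dpa turned to 0.24 without 10 dpa replicate 1 and 0.25 without 7 dpa replicate 2, and its slope to 0.0712 and 0.0187 per day without 14 dpa replicates 1 and 2. The and2 change from 7 to 10 dpa passed without 0 dpa replicate 3 (-1.19 ± 0.16, limma adjusted p = 0.0488). Its estimate was that of the main fit (-1.19 ± 0.31), and only the SE differed, as all times share the estimate of the spread. The cause of the turns in the and3 values was not tested.

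Replicate numbers are shared between times, but the labels do not say that a number marks a shared batch or day. Same-numbered libraries were therefore not taken as pairs. Their deviations correlated above 0.1 in 10 of 26 pairs, with r from -0.77 to 0.57. Libraries with different numbers were not compared, so nothing is read from this count. With the replicate number as a block no actinodin call changed, for example 6.41 for and1 and 1.43 for and3 from 0 to 3 dpa. Counts over all genes moved by more than 1.5 times in some settings, such as genes higher at 14 dpa, 1143 as reported, 272 after scaling, 201 with only the groups compared and 3157 without the 4 libraries, and genes lower at 7 dpa, 1022 as reported and 1904 after scaling. Genes lower at 10 dpa were 308 as reported, 861 after scaling and 177 with only the groups compared, and genes lower from 10 to 14 dpa were 410, and 45 without 14 dpa replicate 1. TPM gives no read depth, so counting error of and3 at 0 dpa, near 1 TPM, is unknown.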
